A study of Homo sapiens with 25 samples.

Results

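The genes described here are 38 interferon-stimulated genes, the type I interferon response genes together with the sensors and transcription factors that drive them. They were taken by name from a table of 59427 gene names. The study is an RNA sequencing experiment on 2 human non-small cell lung cancer lines, A549 (adenocarcinoma) and NCI-H460 (large cell carcinoma), both established lines. Cells were transfected with antisense oligonucleotides (ASOs), short synthetic strands that bind an RNA by base pairing so that the cell cuts it, directed against 2 long noncoding RNAs that the labels call candidates 42 and 240. RNA was collected 24 hours after transfection at a dose of 25 nM. Each line had 5 groups: a neutral control oligonucleotide (Qiagen control A), candidate 42 ASO3, candidate 42 ASO5, candidate 240 ASO1 and candidate 240 ASO3. A549 groups held 3 libraries each, replicates 3, 4 and 5, and NCI-H460 groups held 2 each, replicates 1 and 2, which gives 25 libraries. Every group, control included, received a transfected oligonucleotide, and no untransfected cells are among these libraries. The labels do not say that replicates came from separate cultures, so the tests measure the spread between these libraries, which may be technical. The labels give the targets by candidate number only, and the knockdown of the targets was not analysed here.

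Cells sense foreign or misplaced nucleic acid through receptors such as RIG-I (gene DDX58) and MDA5 (IFIH1), and the signal ends in the production of type I interferon. Interferon binding to its receptor activates a complex that includes STAT2 and IRF9 and binds the interferon-stimulated response element in the promoters of many of the genes described here. Their products cut or bind viral RNA, tag proteins or block viral replication, and several (the sensors, IRF7, IRF9 and STAT2) feed back into the pathway. Many of these genes also have a basal level in cancer cell lines without added interferon.

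The core letters of the response element are shown first. Most members with a promoter window held them, but not all, and the list was itself drawn up as interferon-stimulated genes. RefSeq promoter windows (GRCh38.p14, 250 bases before to 50 after a start) were at hand for 32 of the 38 members. IRF7, OAS2, OASL, IFIT2, USP18 and MX2 had no entry. The letters GAAA, any 2 bases and GAAA again, searched on both strands, occurred in the windows of 22 of 32 members (68.8%) and in those of 1195 of 27305 genes in the whole table (4.38%). Among members the share was 14 of 20 (70.0%) for those that changed with an ASO and 8 of 12 (66.7%) for those called with none, 4 of which (RSAD2, CMPK2, BST2 and XAF1) were too low to be tested in either line. The letters TTCNNNGAA, the core of the gamma-activated site, also searched on both strands, occurred in 9 of 32 members (28.1%) and in 9.38% of all genes. Matches can overlap: in ISG15 and HERC5 matches to the GAAA pattern share bases with each other, and in IFI27 a match to each motif shares bases. The 8 promoters that follow are given as the 250 bases before the start, 5′ to 3′ on the gene's strand, with matches to the GAAA pattern on either strand in capitals. ISG15, IFIT3, IFIT1, HERC5, IFI6 and IFI27 carried matches and rose with at least 1 ASO, and IRF9 and OAS1 rose with no match in the window.
ISG15: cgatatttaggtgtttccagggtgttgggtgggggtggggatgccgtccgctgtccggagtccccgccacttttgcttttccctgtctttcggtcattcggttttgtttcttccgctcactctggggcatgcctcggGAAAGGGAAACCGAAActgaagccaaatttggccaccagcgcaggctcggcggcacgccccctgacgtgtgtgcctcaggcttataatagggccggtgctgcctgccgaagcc
IFIT3: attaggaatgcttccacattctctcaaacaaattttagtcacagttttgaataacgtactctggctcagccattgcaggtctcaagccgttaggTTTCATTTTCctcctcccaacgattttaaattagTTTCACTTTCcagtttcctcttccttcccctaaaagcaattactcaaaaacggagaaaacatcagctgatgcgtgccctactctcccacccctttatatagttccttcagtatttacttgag
IFIT1: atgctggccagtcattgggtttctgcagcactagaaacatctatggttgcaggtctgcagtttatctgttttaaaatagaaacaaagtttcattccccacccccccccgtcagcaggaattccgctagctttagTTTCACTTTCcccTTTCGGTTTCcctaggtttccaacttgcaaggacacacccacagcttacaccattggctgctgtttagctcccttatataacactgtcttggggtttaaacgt
HERC5: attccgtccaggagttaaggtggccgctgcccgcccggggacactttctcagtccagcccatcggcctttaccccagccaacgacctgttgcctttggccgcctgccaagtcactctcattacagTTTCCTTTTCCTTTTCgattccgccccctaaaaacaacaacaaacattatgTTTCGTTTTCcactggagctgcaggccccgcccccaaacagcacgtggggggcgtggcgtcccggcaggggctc
IFI6: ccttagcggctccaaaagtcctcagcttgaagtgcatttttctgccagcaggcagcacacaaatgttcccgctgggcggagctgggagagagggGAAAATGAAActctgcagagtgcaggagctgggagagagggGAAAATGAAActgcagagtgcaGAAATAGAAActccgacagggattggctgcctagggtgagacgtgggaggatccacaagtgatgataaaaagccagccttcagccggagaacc
IFI27: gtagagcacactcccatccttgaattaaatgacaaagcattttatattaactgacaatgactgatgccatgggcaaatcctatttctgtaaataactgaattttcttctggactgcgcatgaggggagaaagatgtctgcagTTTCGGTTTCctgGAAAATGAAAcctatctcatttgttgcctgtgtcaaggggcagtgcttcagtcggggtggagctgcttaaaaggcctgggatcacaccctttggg
IRF9: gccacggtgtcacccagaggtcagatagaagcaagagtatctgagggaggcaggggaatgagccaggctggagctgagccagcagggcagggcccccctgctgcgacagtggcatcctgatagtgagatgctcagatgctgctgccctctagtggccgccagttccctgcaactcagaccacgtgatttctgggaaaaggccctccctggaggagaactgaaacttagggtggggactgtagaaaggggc
OAS1: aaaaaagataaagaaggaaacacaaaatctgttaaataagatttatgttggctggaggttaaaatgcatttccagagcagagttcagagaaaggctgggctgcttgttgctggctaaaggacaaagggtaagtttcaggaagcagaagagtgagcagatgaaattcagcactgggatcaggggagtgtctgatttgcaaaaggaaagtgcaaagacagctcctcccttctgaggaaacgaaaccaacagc
These windows lie at chr1:1013247-1013496 (plus strand) for ISG15, chr10:89327747-89327996 (plus strand) for IFIT3, chr10:89392373-89392622 (plus strand) for IFIT1, chr4:88456869-88457118 (plus strand) for HERC5, chr1:27672193-27672442 (minus strand) for IFI6, chr14:94110486-94110735 (plus strand) for IFI27, chr14:24161015-24161264 (plus strand) for IRF9 and chr12:112906712-112906961 (plus strand) for OAS1. In ISG15 the matches start 113 and 107 bases before the transcription start and share 4 bases, so that 3 GAAA blocks stand in a row. In IFIT1 they start 116 and 103 bases before the start, and in IFI6 the 3 matches start 156, 115 and 93 bases before it. A match describes letters in this window and is not a measured binding site, and the absence of a match in IRF9 and OAS1 says only that these letters are not in the window.

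**Figure D1:**
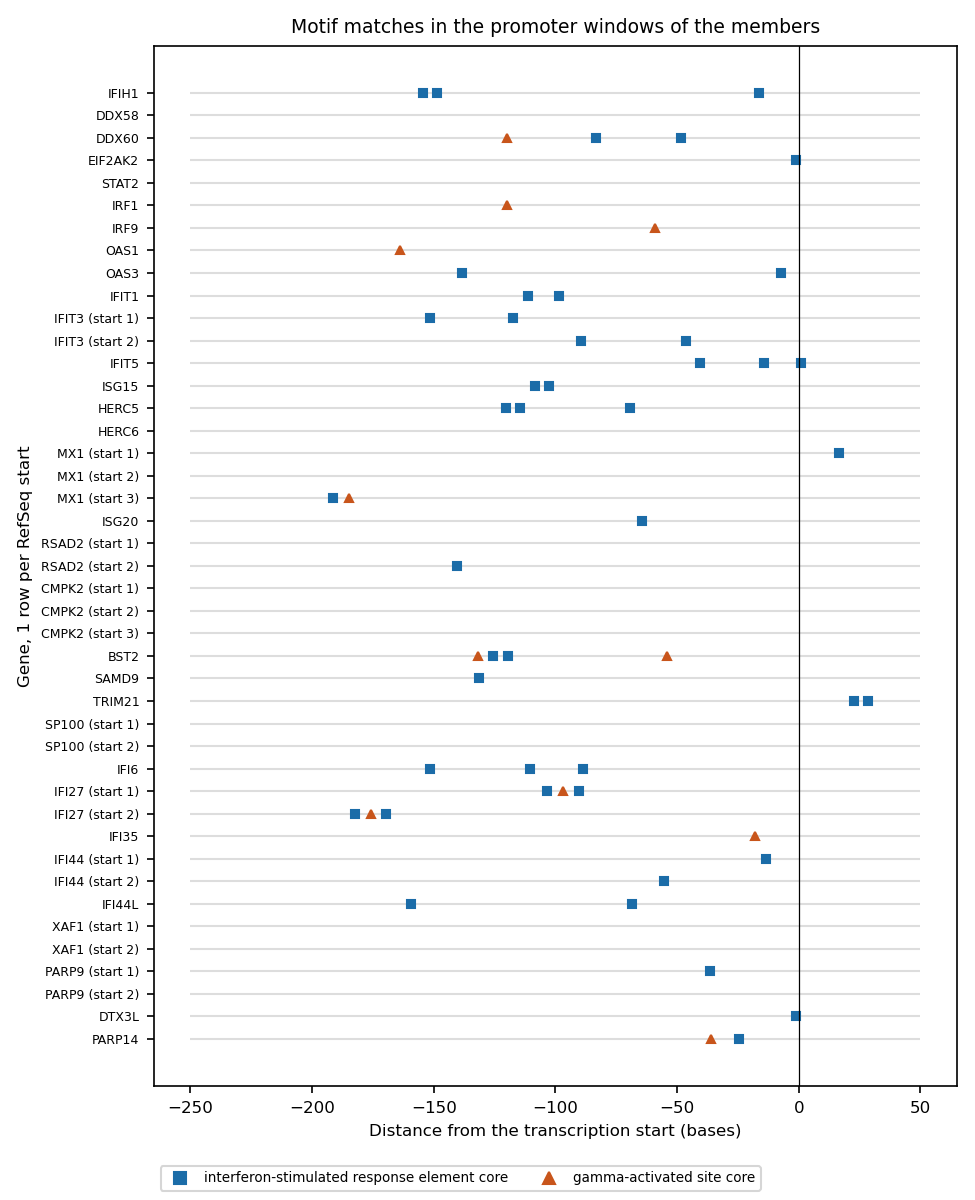
Positions of the 2 motif cores in the RefSeq promoter windows of the members, with distance from the transcription start in bases on the horizontal axis and 1 row per start. Blue squares mark the response element core and orange triangles the gamma-activated site core; 22 of the 32 genes shown hold a blue square.

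Levels are given in TPM (a measure of transcript abundance corrected for length, as deposited) and the depth of the libraries is unknown. A gene was tested where its mean over the libraries of a fit was at least 1 TPM. This kept 30 of 38 members in A549, 32 in NCI-H460 and 32 in the fit over both lines. RSAD2, CMPK2, BST2 and XAF1 were under this level in all 3 fits: RSAD2 (viperin) reached at most 0.295 TPM in any library and was listed at 0 in 9 of 25, XAF1 at most 0.201, CMPK2 at most 1.05 and BST2 (tetherin) at most 1.37. OASL and HERC5 were tested in NCI-H460 only because of their level with candidate 240 ASO3, since without that group their means were 0.581 and 0.805 TPM. IFI44, IFI44L, IFIT1 and SAMD9 entered the fit over both lines through 1 line alone. A gene that passed only through the samples where it is high had to differ, so its differences there are given as descriptions, with no p, and counts are also given without these genes. Summed over the 38 genes, the level lay between 324 and 566 TPM in A549 libraries and between 615 and 843 in NCI-H460.

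The keratins KRT8 and KRT18 were high in every library of both lines (552 TPM or more), CDH1 and EPCAM were present in A549 (3.55 TPM or more) and at most 0.929 TPM in NCI-H460, and the lung lineage factor NKX2-1 was at most 0.104 TPM in either line. In A549, candidate 240 ASO3 replicate 3 stood at 71.9 on the first principal component of all tested genes (24.6% of the variance), against 10.5 and 11.7 for the other replicates of that group. In NCI-H460 the candidate 42 ASO3 libraries stood at 72.2 and 38.7 (48.2% of the variance), and the other 8 libraries between -28.5 and 3.06. A list of 9 leukocyte markers moved with the groups. Its summed level was 35.9 to 40.7 TPM in A549 controls, 58.7 to 75.5 with candidate 42 ASO3, 82.4 to 100.5 with candidate 240 ASO3, 35.7 to 45.7 with candidate 42 ASO5 and 33.8 to 40.2 with candidate 240 ASO1. In NCI-H460 it was 37.3 to 48.6 in controls, 55.7 to 70.3 with candidate 42 ASO3, 61.7 to 63.1 with candidate 240 ASO3, 38.8 to 39.0 with candidate 42 ASO5 and 43.5 to 52.3 with candidate 240 ASO1. CD68 and CD14 made up 87.7% or more of that sum in every library. The defining markers CD3E and CD3D were at 0 in all 25 libraries and PTPRC (CD45) was at 0 in 23, with 0.0158 TPM as its highest value. In bulk libraries, fewer cells that express a gene and less RNA per cell cannot be told apart.

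Under the control oligonucleotide the lines differed in which interferon-stimulated genes they expressed. A549 had higher levels of the transcription factors and of HERC5 and IFIT1, and NCI-H460 had much higher levels of IFI44, IFI44L, ISG20, OAS1, IFI27 and IFI6. In A549, 12 members had a control mean of at least 10 TPM, led by OAS1, IFI35 and ISG20, and in NCI-H460 10 members did, led by ISG20, OAS1 and IFI35. Of 32 members tested between lines, 10 were higher in A549 and 10 were lower, or 9 and 8 of 28 without the 4 that entered through 1 line. The 9 include HERC5, whose NCI-H460 mean reached 1 TPM only through candidate 240 ASO3. Of all genes tested, 54.9% differed between lines (36.4% higher in A549 and 18.4% lower), so the members' share of calls (20 of 32, 62.5%, or 60.7% of 28) is near the background. The median log2 difference of the members was 0.21 with or without those 4, the same as the median of all 14769 genes. When the libraries were rescaled by median ratios, which moves the median of all genes to -0.00377, 8 members were higher and 12 lower: HERC6 and TRIM21 lost their call, and USP18 and MX1 were then lower in A549.

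The most unequal pair were IFI44 and its neighbour IFI44L, interferon-induced genes of little known function that lie next to each other on chromosome 1 (IFI44L at chr1:78619922-78646145 and IFI44 at chr1:78649796-78664078, hg38). IFI44 was at 0.436, 0.222 and 0.788 TPM in the A549 controls and 19.2 and 19.995 in the NCI-H460 controls. IFI44L was at 0, 0.0369 and 0.0815 in A549 and 9.49 and 10.2 in NCI-H460. Both were near 0 in all 15 A549 libraries, at most 0.969 TPM for IFI44 and 0.228 for IFI44L, and the log2 differences in limma's fit were -4.39 and -4.27. Both genes passed the filter through NCI-H460 alone, so these values are a description.

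ISG20, an exonuclease that degrades viral RNA, was the member with the highest control level in NCI-H460, at 183 and 167 TPM against 38.7, 28.4 and 31.95 in A549 (log2 difference -2.396, SE 0.20, limma adjusted p = 4.5e-09). OAS1, which makes a short RNA messenger on binding double-stranded RNA, was at 135 and 146 against 40.4, 48.2 and 41.4 (-1.69, SE 0.14, adjusted p = 3.02e-09). IFI6 and IFI27, small proteins of the endoplasmic reticulum and mitochondria, followed. IFI6 was at 53.5 and 50.1 against 27.7, 17.1 and 12.5 (-1.49, SE 0.24, adjusted p = 2.91e-05), and IFI27 at 3.04 and 3.26 against 1.33, 0.453 and 0.7001 (-1.51, SE 0.48, adjusted p = 0.0113). No control library of one line reached the control range of the other for these 4 genes, and IFI35 was also lower in A549. Such a lack of overlap is the usual case, found for 68.7% of all genes (43.8% higher in A549 and 24.9% lower). The call of IFI27 was lost without NCI-H460 control replicate 2 (adjusted p = 0.0632).

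In the other direction, HERC5, the ligase that attaches ISG15 to new proteins, was at 3.99, 4.14 and 4.21 TPM in A549 and 0.727 and 0.769 in NCI-H460 (log2 difference 1.89). That value is a description, since its NCI-H460 mean reached 1 TPM only through candidate 240 ASO3. IFIT1, which binds viral RNA that lacks a host cap, was at 1.88, 1.996 and 1.37 against 0.401 and 0.538 (log2 difference 1.21, a description since the gene entered through A549 alone). For both genes the control libraries of the lines were apart, as for 68.7% of all genes, with the NCI-H460 levels under 1 TPM. All 4 transcription factors were higher in A549 under each of the 3 scalings: IRF9 at 21.4, 19.04 and 15.6 against 6.09 and 5.24 (1.63, SE 0.14, adjusted p = 1.03e-08) and IRF1 at 19.96, 17.98 and 19.99 against 6.63 and 8.07 (1.34, SE 0.13, adjusted p = 5.18e-08). IRF7 and STAT2 differed by 1.01 and 0.82 on the same scale. The replicate numbers of the lines do not overlap, so line and replicate series cannot be told apart.

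**Figure D2:**
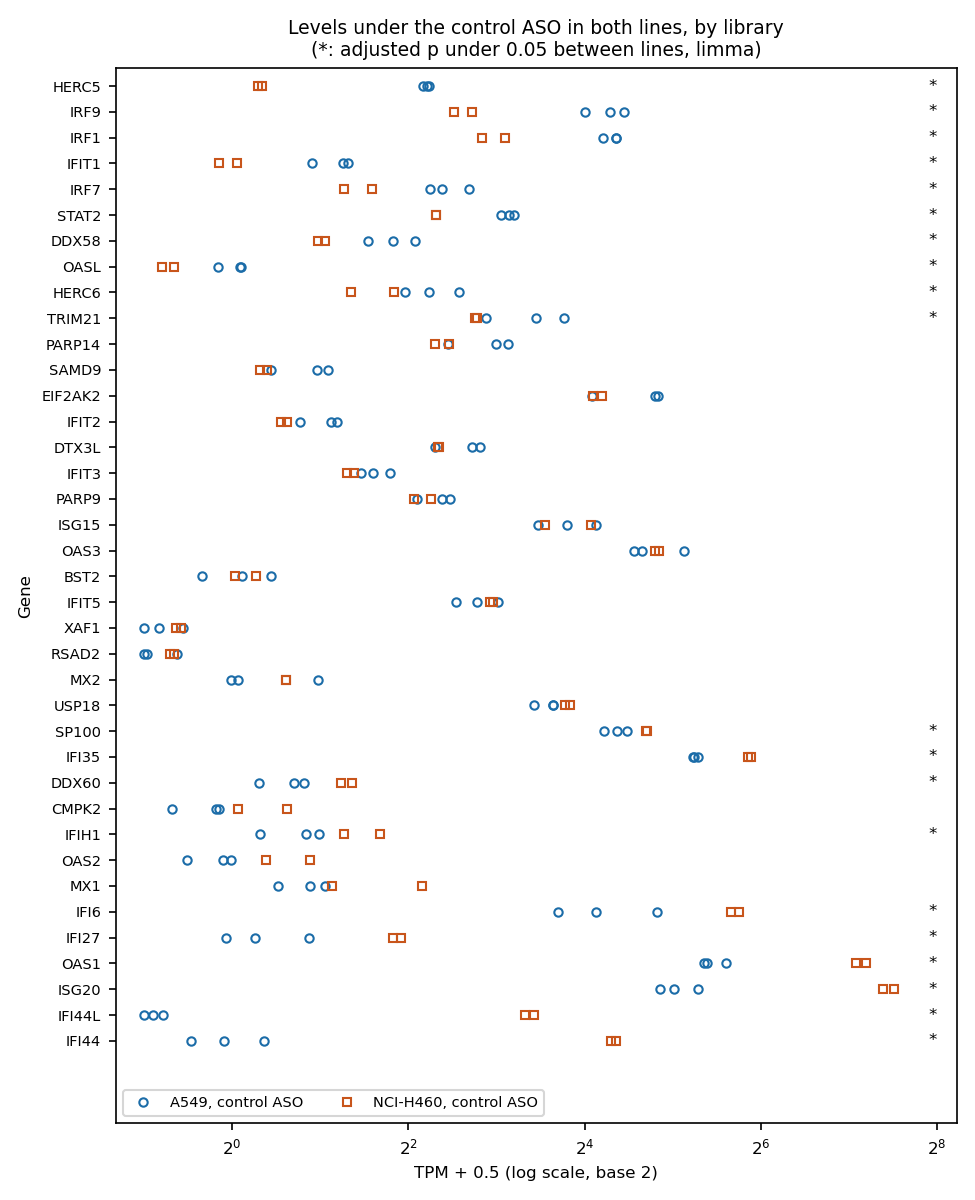
Level of each member in the control libraries, 3 of A549 (circles) and 2 of NCI-H460 (squares), as TPM + 0.5 on a log axis. Genes are ordered from the most A549-biased at the top to the most NCI-H460-biased at the bottom. IFI44, IFI44L and ISG20 lie at the bottom and HERC5 and IRF9 at the top. Stars mark the 20 genes that differed between lines, of which IFI44, IFI44L and IFIT1 were tested through 1 line alone. HERC5, also starred, reached an NCI-H460 mean of 1 TPM only through candidate 240 ASO3.

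With the ASOs, a core of these genes rose in both lines with candidate 240 ASO3, and part of it rose with candidate 42 ASO3. Few members were called with candidate 42 ASO5 and none with candidate 240 ASO1. Candidate 240 ASO3 raised 13 of 30 tested members in A549 and lowered none, where 13.8% of all genes were called (884 of 14740 higher, and 7.82% lower). In NCI-H460 it raised 8 of 32 and lowered none, against 2.65% and 3.01% of all genes (5.66% in all). Without OASL and HERC5, which were tested there through this group alone, it raised 7 of 30. Candidate 42 ASO3 raised 7 of 30 in A549 and lowered none, against 3.43% and 6.63% (10.1% in all). In NCI-H460 it raised 7 of 32 and lowered 8, against 13.2% and 32.8%, where 46.0% of all genes were called. Without OASL and HERC5 it raised 6 of 30 and lowered 8. Candidate 42 ASO5 raised OAS1 and lowered USP18 in A549, against 1.42% and 2.40% of all genes (3.82% in all). In NCI-H460 OASL alone was called with it, higher, against 0.182% of all genes (0.508% in all). Without OASL and HERC5 that count was 0 of 30. Candidate 240 ASO1 changed no member by limma in either line, where 0% of all genes were called. At an unadjusted p under 0.05 the number was 0 members in A549 and 3 in NCI-H460, and the authors' deposited tables also give 0 members with a q-value under 0.05 there. The members' log2 fold changes with that ASO lay between -0.28 and 0.58 in A549 and between -0.61 and 0.56 in NCI-H460.

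The median log2 fold change of the tested members was 0.50 with candidate 240 ASO3 in A549, against -0.01 for all genes, and 0.17 (0.16 without OASL and HERC5) against -0.03 in NCI-H460. With candidate 42 ASO3 it was 0.30 against 0.02 in A549 and 0.06 against -0.20 in NCI-H460. In these 4 comparisons the summed leukocyte list was also above its control range in every library, with CD3E and CD3D at 0. CD68 lay above its controls in every one of these libraries, and CD14 overlapped its control range in each comparison. CD68 was also above its controls with candidate 42 ASO5, where few members were called. It was at 28.8 to 33.4 TPM against 21.6 to 24.5 in A549 and 25.5 to 27.4 against 19.1 to 24.7 in NCI-H460. NCAM1, also on the list, went the other way in NCI-H460, from 3.13 to 4.41 TPM in controls. It was at 0.724 to 1.12 with candidate 42 ASO3, 1.23 to 1.46 with candidate 42 ASO5 and 1.497 to 1.77 with candidate 240 ASO3. The part of this list in the result was not tested. Over both lines, 24 of 38 members changed with at least 1 ASO, 16 of them upwards and 9 downwards, with SP100 in both counts. They are 70.6% of the 34 members tested in at least 1 line, where 52.1% of all 15754 such genes were called with at least 1 ASO (18.1% upwards and 35.5% downwards). OASL was called in 5 of 8 comparisons (once in NCI-H460 through the group that admitted it), ISG15 in 4, and IRF7, IRF9, OAS1, IFIT2 and IFIT3 in 3 each. The 14 members called in none were DDX60, STAT2, IRF1, OAS2, IFIT5, MX1, MX2, RSAD2, CMPK2, BST2, SAMD9, TRIM21, IFI44 and XAF1, of which 4 were not tested in either line.

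Whether the treated libraries lay apart from the controls is given for each gene below, and this is frequent among all genes with so few libraries. In A549 the libraries lay above every control for 11 members and below for none with candidate 42 ASO3 (13.3% and 14.4% of all genes), for 5 and 2 with candidate 42 ASO5 (11.6% and 10.6%), for 1 and 1 with candidate 240 ASO1 (2.82% and 2.43%, 5.25% in all) and for 14 and 1 with candidate 240 ASO3 (12.2% and 13.2%). In NCI-H460, with 2 libraries a group, they lay above for 15 and below for 12 with candidate 42 ASO3 (25.7% and 49.1%), for 14 and 6 with candidate 42 ASO5 (29.1% and 25.4%, 54.6% in all), for 7 and 10 with candidate 240 ASO1 (22.1% and 24.7%, 46.9% in all) and for 18 and 4 with candidate 240 ASO3 (28.0% and 32.5%, 60.6% in all). In NCI-H460 a lack of overlap alone is therefore the usual case for any gene.

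NCI-H460 with candidate 42 ASO3 needs its scale stated. The median of all genes there was -0.20 in the deposited TPM values, which is itself a shift of the whole table. After median-ratio scaling, which sets that median to -0.00152, 10 members rose and 3 fell (OAS3, IFI44L and DTX3L), and after rescaling each library to the same sum, where the median of all genes was -0.34, 4 rose and 9 fell. ISG15, IRF7, IRF9 and IFI6 rose and OAS3, IFI44L and DTX3L fell under all 3 scalings. The count of 15 changed members became 7 without candidate 42 ASO3 replicate 1, 8 without control replicate 1 and 9 without control replicate 2. For candidate 240 ASO3 in NCI-H460 the count of 8 became 2 and 1 without its replicates 1 and 2, and 3 and 2 without control replicates 1 and 2, and rescaling to the same sum left 5. For candidate 42 ASO3 in A549 the count of 7 became 4 without its replicate 4 or its replicate 5. Without candidate 42 ASO5 replicate 3 or 4 or control replicate 4, OAS1 alone remained called with candidate 42 ASO5 in A549, and leaving out any 1 of the 4 libraries left no member called with that ASO in NCI-H460.

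**Figure D3:**
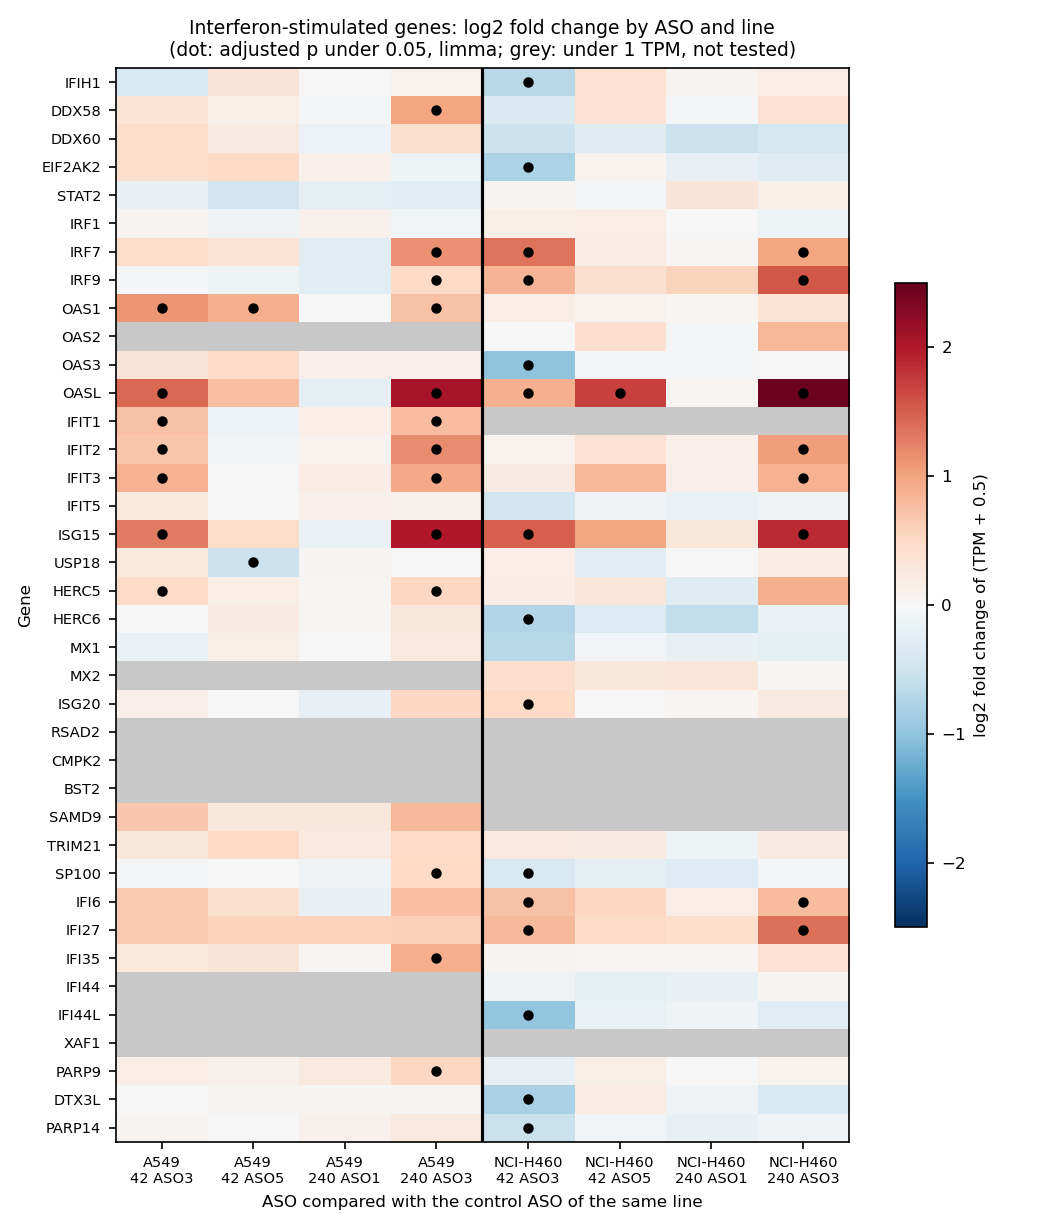
Log2 fold change of TPM + 0.5 for each of the 38 genes (rows) with each ASO against the control of the same line (columns, A549 on the left of the black line). Dots mark an adjusted p under 0.05 and grey marks genes not tested; the columns of candidate 240 ASO3 hold 13 and 8 dots, all on raised genes (OASL in NCI-H460 tested through that group alone), and those of candidate 240 ASO1 hold none.

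Among the transcription factors IRF7 and IRF9 rose and STAT2 and IRF1 did not pass the test with any ASO. IRF7, the factor that amplifies interferon gene transcription (chr11:612553-615983, hg38, minus strand), was at 5.97, 4.23 and 4.73 TPM in A549 controls and at 15.6, 11.04 and 8.87 with candidate 240 ASO3. In NCI-H460 it was at 1.91 and 2.501 in controls, 5.28 and 4.45 with candidate 240 ASO3 and 6.81 and 6.05 with candidate 42 ASO3. No treated library in these groups overlapped its controls. The log2 fold changes were 1.15 (SE 0.19, adjusted p = 0.00125), 0.99 (SE 0.18, adjusted p = 0.0172) and 1.36 (SE 0.18, adjusted p = 0.000673). The NCI-H460 call with candidate 240 ASO3 was lost when any 1 of the 4 libraries of its groups was left out (adjusted p up to 0.128).

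IRF9, the DNA-binding part of the complex with STAT2 (chr14:24161265-24166565, hg38, plus strand), was low in NCI-H460 controls at 6.09 and 5.24 TPM and reached 18.3 and 16.9 with candidate 240 ASO3 and 11.8 and 9.42 with candidate 42 ASO3. In A549 it was already at 21.4, 19.04 and 15.6 in controls and at 27.8, 27.05 and 24.2 with candidate 240 ASO3. With candidate 240 ASO3, IRF9 in NCI-H460 thus came within the range of the A549 controls. The log2 fold changes were 1.56 (SE 0.16, adjusted p = 0.00227) and 0.85 (SE 0.16, adjusted p = 0.00294) in NCI-H460 and 0.49 (SE 0.13, adjusted p = 0.0215) in A549. The A549 call was lost in 4 of 6 omissions of a library (without candidate 240 ASO3 replicate 3 or 4 or control replicate 4 or 5, adjusted p up to 0.0919). IRF9 overlaps another gene on its strand, AL136295.5, which was between 0.540 and 3.16 TPM in all libraries.

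Among the sensors, DDX58 rose in A549, and IFIH1 and EIF2AK2 fell in NCI-H460. DDX58 (RIG-I, the sensor of short RNA with a 5′ triphosphate) was at 2.401, 3.04 and 3.71 TPM in A549 controls and 5.295, 6.86 and 7.38 with candidate 240 ASO3, all 3 above every control (log2 0.99, SE 0.19, adjusted p = 0.00345). IFIH1 (MDA5, the sensor of long double-stranded RNA) was at 2.69 and 1.91 in NCI-H460 controls and 1.29 and 1.16 with candidate 42 ASO3, below both controls (-0.69, SE 0.21, adjusted p = 0.0263). EIF2AK2 (PKR, the kinase that stops translation on binding double-stranded RNA) was at 16.6 and 17.9 and 7.28 and 13.1 in the same groups (-0.78, SE 0.23, adjusted p = 0.0204). Neither of these lower calls held after median-ratio scaling (adjusted p = 0.0668 for IFIH1 and 0.0537 for EIF2AK2), and both were lost without candidate 42 ASO3 replicate 1 or control replicate 1, EIF2AK2 also without control replicate 2 and IFIH1 also without candidate 42 ASO3 replicate 2.

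Of the OAS genes tested in each line, OASL had the largest rise, and from the lowest level. OAS2 was lower still in A549 (mean 0.297 TPM over its libraries) and was not tested there. OASL, which has lost the enzyme activity of its relatives and binds RIG-I (chr12:121019111-121039242, hg38, minus strand), was at 0.392, 0.559 and 0.568 TPM in A549 controls. It was at 2.76, 2.13 and 1.87 with candidate 42 ASO3, 1.32, 1.11 and 1.17 with candidate 42 ASO5, 0.307, 0.226 and 0.577 with candidate 240 ASO1 and 4.37, 3.37 and 3.34 with candidate 240 ASO3. In NCI-H460 it was at 0.0754 and 0.1303 in controls, and in the same order of ASOs at 0.641 and 0.603, 1.17 and 1.79, 0.142 and 0.09796 and 2.75 and 2.83. Only candidate 240 ASO1 overlapped the controls, in both lines. The log2 fold changes with candidate 240 ASO3 were 2.05 (SE 0.21, adjusted p = 3.24e-05) in A549 and 2.45 in NCI-H460, the second with no p since that group alone admitted the gene to the test. With candidate 42 ASO3 they were 1.44 (SE 0.21, adjusted p = 0.000705) and 0.90 (SE 0.28, adjusted p = 0.0297). With candidate 42 ASO5 the call was made in NCI-H460 (1.6996, SE 0.28, adjusted p = 0.0461) and not in A549 (0.76, SE 0.21, adjusted p = 0.0716). Without the candidate 240 ASO3 libraries OASL would not have been tested in NCI-H460 (mean 0.581 TPM). Both NCI-H460 calls with candidate 42 ASOs were lost in every omission of a library that could be fitted, and at this low level the pseudocount of 0.5 keeps the fold changes small.

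OAS1 rose in A549 with 3 of the 4 ASOs. Its levels were 40.4, 48.2 and 41.4 TPM in A549 controls, 86.2, 96.5 and 98.05 with candidate 42 ASO3, 69.1, 81.5 and 94.3 with candidate 42 ASO5 and 67.1, 74.8 and 75.2 with candidate 240 ASO3, with all 9 treated libraries above every control, while candidate 240 ASO1 (35.7, 43.7 and 52.1) overlapped them. The log2 fold changes were 1.104 (SE 0.14, adjusted p = 0.000215), 0.90 (SE 0.14, adjusted p = 0.00319) and 0.74 (SE 0.14, adjusted p = 0.00321). OAS1 was the only member called higher with both candidate 42 ASOs in A549 in the main fit, and its calls held in every omission of a library. With the replicate number as a block, EIF2AK2, ISG15 and OASL were also called higher with both. In NCI-H460 it was at 135 and 146 in controls, 166 and 149.99 with candidate 42 ASO3 and 182 and 172 with candidate 240 ASO3, both pairs above the controls. Neither passed the test on the deposited scale (0.17, adjusted p = 0.172, and 0.33, adjusted p = 0.0762), and the first did after median-ratio scaling (0.38, adjusted p = 0.0142). OAS3, the longest of the family, fell with candidate 42 ASO3 in NCI-H460, from 28.3 and 27.4 to 10.3 and 18.1 (-0.9992, SE 0.21, adjusted p = 0.00506). OAS1, OAS3 and OAS2 lie side by side on chromosome 12 and share a gene on the opposite strand, and no source used here states how strand was handled in the quantification.

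Of the IFIT genes, whose products bind foreign RNA ends, IFIT1, IFIT2 and IFIT3 rose in A549 with candidate 42 ASO3 and candidate 240 ASO3, and IFIT5 was called with no ASO. IFIT3 was at 2.26, 2.96 and 2.52 TPM in A549 controls, 4.32, 5.34 and 5.62 with candidate 42 ASO3 and 5.14, 6.12 and 5.11 with candidate 240 ASO3. IFIT2 was at 1.202, 1.68 and 1.79, 2.53, 3.24 and 2.73 and 3.11, 4.83 and 4.62 in the same groups. IFIT1 was at 1.88, 1.996 and 1.37, 2.91, 3.22 and 3.56 and 3.56, 2.96 and 3.499. For all 3 genes every library of both ASOs lay above every control. With candidate 240 ASO3 the log2 fold changes were 0.95 (SE 0.15, adjusted p = 0.000918), 1.178 (SE 0.19, adjusted p = 0.000978) and 0.78 (SE 0.19, adjusted p = 0.0133). With candidate 42 ASO3 they were 0.86 (SE 0.15, adjusted p = 0.00267), 0.70 (SE 0.19, adjusted p = 0.0315) and 0.74 (SE 0.19, adjusted p = 0.0233). With candidate 42 ASO3 the IFIT1 call was lost without its replicate 4 or 5 or control replicate 5 (adjusted p up to 0.101), and the IFIT2 call without its replicate 4 or 5 or control replicate 3 or 4 (up to 0.122). For IFIT1, omitting control replicate 5 ended the call with candidate 240 ASO3 (0.0596).

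In NCI-H460, IFIT2 and IFIT3 rose with candidate 240 ASO3. IFIT2 went from 1.04 and 0.963 to 3.03 and 2.204 TPM (1.04, SE 0.23, adjusted p = 0.0351) and IFIT3 from 2.12 and 1.97 to 4.56 and 3.73 (0.86, SE 0.17, adjusted p = 0.0256). The treated pairs were above both controls, but either call was lost when any 1 of the 4 libraries was left out (adjusted p up to 0.203 and 0.181) and when libraries were rescaled to the same sum (0.0608 and 0.0701). IFIT1 stayed under the tested level there, at 0.401 and 0.538 in controls and 1.58 and 1.26 with candidate 240 ASO3. IFIT5, the fourth of the cluster, lay between 5.305 and 8.69 TPM in A549. IFIT1, IFIT2 and IFIT3 lie within LIPA on the other strand. LIPA, a lysosomal lipase, was more abundant than they were: 67.4 ± 5.47 TPM (SD, n = 3) in A549 controls, 55.3 ± 6.61 with candidate 42 ASO3, 41.5 ± 3.07 with candidate 42 ASO5, 70.3 ± 8.74 with candidate 240 ASO1 and 33.4 ± 3.94 with candidate 240 ASO3. In NCI-H460 (n = 2) its means were 68.1 in controls, 33.9 with candidate 42 ASO3, 37.9 with candidate 42 ASO5, 60.9 with candidate 240 ASO1 and 37.6 with candidate 240 ASO3. Its mean was thus also low in groups where no IFIT gene was called, and its part in their values was not tested. IFIT2 also overlaps AL353751.1 on its own strand (0.0488 to 2.12 TPM over all libraries).

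ISG15, the ubiquitin-like modifier that is among the most strongly induced of these genes (chr1:1001138-1014540, hg38, plus strand), was at 16.95, 13.5 and 10.6 TPM in A549 controls. It was at 43.9, 30.1 and 29.7 with candidate 42 ASO3, 23.4, 16.2 and 17.2 with candidate 42 ASO5, 17.1, 9.37 and 10.7 with candidate 240 ASO1 and 91.2, 46.1 and 40.5 with candidate 240 ASO3. In NCI-H460 the controls were at 16.4 and 11.2, and the same ASOs gave 49.2 and 31.02, 30.02 and 24.7, 14.7 and 18.95 and 50.1 and 51.5. The libraries of ASO3 of either candidate were above every control in both lines. In A549 replicate 3 was the highest library in every group, so its spread between replicates was wide. The log2 fold changes with candidate 240 ASO3 were 2.004 (SE 0.30, adjusted p = 0.000559) in A549 and 1.87 (SE 0.24, adjusted p = 0.00501) in NCI-H460, and with candidate 42 ASO3 1.31 (SE 0.30, adjusted p = 0.0135) and 1.49 (SE 0.24, adjusted p = 0.00161). The A549 call with candidate 42 ASO3 was lost without its replicate 3 or control replicate 5 (adjusted p up to 0.0595), and the NCI-H460 call with candidate 240 ASO3 without replicate 2 of either group (up to 0.0515).

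The enzymes that attach and remove ISG15 moved less. HERC5 was at 3.99, 4.14 and 4.21 TPM in A549 controls, 5.78, 6.34 and 5.77 with candidate 42 ASO3 and 6.604, 5.72 and 6.09 with candidate 240 ASO3, without overlap. Its log2 fold changes were 0.49 (SE 0.12, adjusted p = 0.02) and 0.52 (SE 0.12, adjusted p = 0.0102), the first of which was lost without control replicate 3 or 4 or candidate 42 ASO3 replicate 4 or 5 (adjusted p up to 0.0843). USP18, the protease that removes ISG15 and restrains the interferon receptor, was at 12.03, 12.02 and 10.3 in A549 controls and 7.29, 7.89 and 8.02 with candidate 42 ASO5, where it was the only member that fell (-0.53, SE 0.11, adjusted p = 0.0128). That call was lost without candidate 42 ASO5 replicate 3 or 4 or control replicate 4 (up to 0.0559). HERC6, a relative and neighbour of HERC5 on chromosome 4, was at 2.05 and 3.08 in NCI-H460 controls and 1.34 and 1.29 with candidate 42 ASO3 (-0.74, SE 0.22, adjusted p = 0.0255), a call that median-ratio scaling ended (0.0607), as did leaving out either candidate 42 ASO3 library or control replicate 2.

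**Figure D4:**
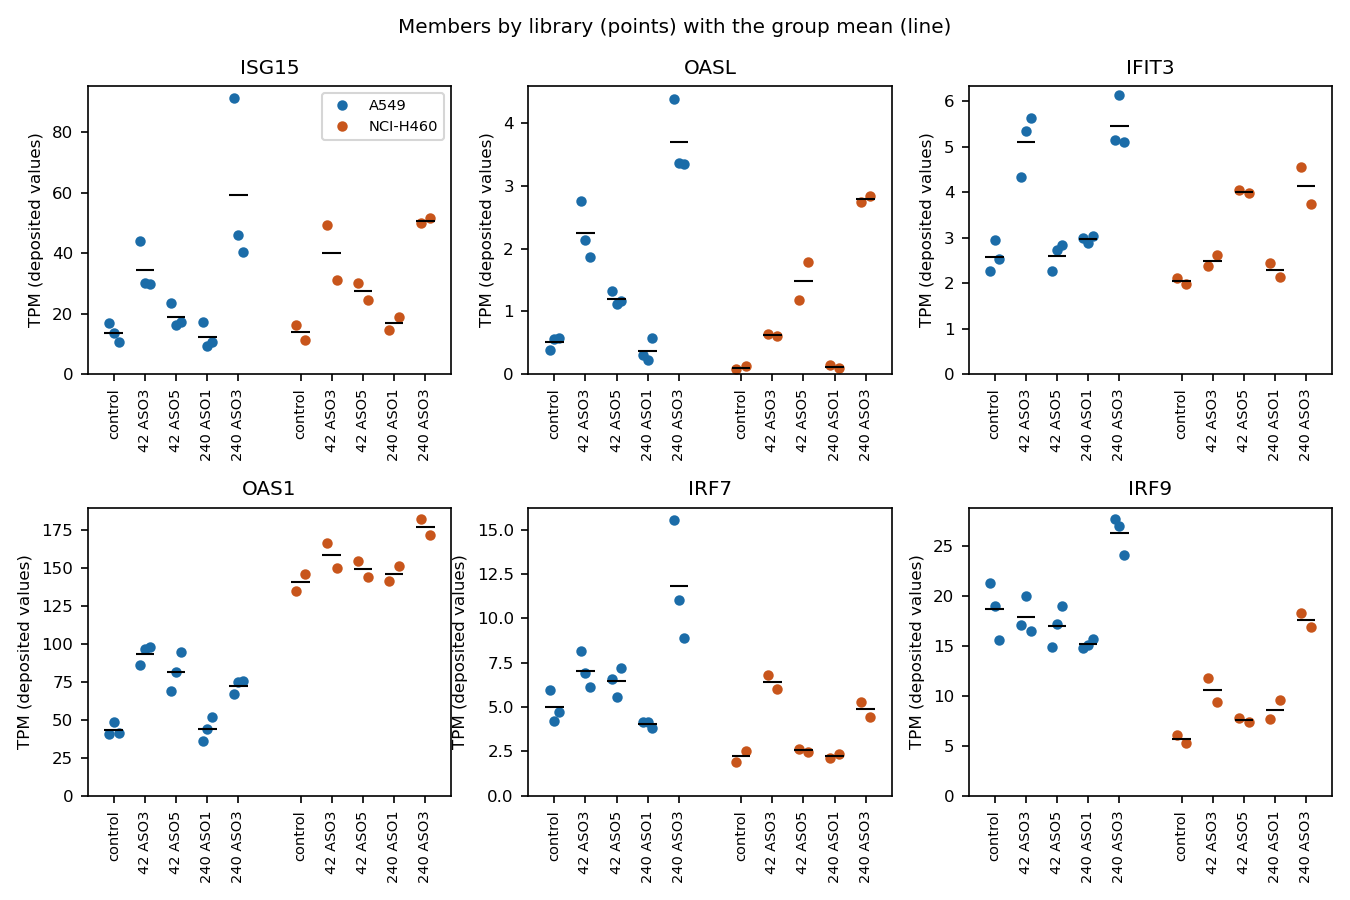
Deposited TPM value in every library (points) with the group mean (line) for 6 members, A549 in blue and NCI-H460 in orange, on axes that start at 0. The candidate 240 ASO3 libraries lie above every control of their line in all 6 panels.

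Of the IFI group, IFI35 rose in A549 and IFI6 and IFI27 rose in NCI-H460. IFI35, a regulator of innate signalling, was at 38.6, 37.4 and 36.99 TPM in A549 controls and 87.998, 64.96 and 62.1 with candidate 240 ASO3 (0.90, SE 0.12, adjusted p = 0.000218), all 3 far above the narrow control range. IFI6 was at 53.5 and 50.1 in NCI-H460 controls, 101 and 74.2 with candidate 42 ASO3 and 90.4 and 88.7 with candidate 240 ASO3, without overlap. Its log2 fold changes were 0.74 (SE 0.14, adjusted p = 0.00337) and 0.78 (SE 0.14, adjusted p = 0.0169). In A549, IFI6 had a fold change of similar size with candidate 240 ASO3 (0.75, SE 0.24, adjusted p = 0.0557) over controls that ranged from 12.5 to 27.7 TPM. With the replicate number as a block, that call was made (limma adjusted p = 0.00499), as were those of ISG20, SAMD9 and TRIM21 (0.000894, 0.00303 and 0.0299). Pairing by number was clear in these groups for replicate 3 only (correlation 0.564, and -0.369 with other numbers). For replicates 4 and 5 the same number gave 0.283 and 0.304 and other numbers up to 0.263 and 0.277.

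IFI27 was at 3.04 and 3.26 TPM in NCI-H460 controls, 6.17 and 5.703 with candidate 42 ASO3 and 10.7 and 7.47 with candidate 240 ASO3 (0.82 and 1.37, SE 0.28 for both, adjusted p = 0.0391 and 0.0262). IFI44L fell with candidate 42 ASO3, from 9.49 and 10.2 to 3.93 and 5.602 (-0.99, SE 0.16, adjusted p = 0.00167). Its neighbour IFI44 was at 19.4 and 17.6 against 19.2 and 19.995 and was not called. The IFI44L call held in every omission of a library. Those of IFI27 with both ASOs, and that of IFI6 with candidate 240 ASO3, were lost when any 1 of the 4 libraries was left out (adjusted p up to 0.142).

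The remaining effectors gave few calls. SP100, a nuclear body protein, rose with candidate 240 ASO3 in A549, from 18.2, 20.2 and 21.8 to 29.2, 27.5 and 28.6 TPM (0.49, SE 0.10, adjusted p = 0.0052), and fell with candidate 42 ASO3 in NCI-H460, from 25.7 and 25.5 to 17.4 and 21.1 (-0.41, SE 0.13, adjusted p = 0.032). The fall was not called after median-ratio scaling (-0.20, adjusted p = 0.227). ISG20 was at 183 and 167 in NCI-H460 controls and 301 and 202 with candidate 42 ASO3 (0.50, SE 0.18, adjusted p = 0.0476), where replicate 1 was the higher library. The call was lost without that replicate or without either control library (adjusted p up to 0.285). MX1, a GTPase that traps viral particles and a usual marker of interferon exposure, passed the test with no ASO: it lay between 0.381 and 2.48 TPM over the 15 A549 libraries and between 1.19 and 3.96 over the 10 of NCI-H460. MX2 was at most 1.57 TPM in A549 and 1.78 in NCI-H460.

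PARP9 and DTX3L, partners in 1 complex whose genes overlap at their starts on opposite strands of chromosome 3, were called in different comparisons. PARP9 rose with candidate 240 ASO3 in A549, from 4.72, 5.07 and 3.79 to 6.09, 6.29 and 7.63 TPM (0.51, SE 0.16, adjusted p = 0.0416), a call that was lost in 5 of 6 omissions of a library (all but that of candidate 240 ASO3 replicate 3). DTX3L fell with candidate 42 ASO3 in NCI-H460, from 4.55 and 4.58 to 2.06 and 2.72 (-0.82, SE 0.16, adjusted p = 0.00404). PARP14, next to them, was at 4.99 and 4.44 in NCI-H460 controls and 2.73 and 3.35 with candidate 42 ASO3 (-0.56, SE 0.17, adjusted p = 0.0233), which was not called after median-ratio scaling (0.083).

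The ASOs against 1 candidate were compared with each other directly. Candidate 240 ASO3 gave higher levels than ASO1 for 14 of 30 members in A549 and lower for none, against 7.25% of all genes higher, and for 4 of 32 in NCI-H460 (IRF7, IRF9, ISG15 and OASL), against 1.04% (3 of 30 without OASL and HERC5). With the replicate number as a block, SAMD9 was also higher in A549 (limma adjusted p = 0.0281). For replicate 5 of these A549 groups the same number correlated little more than other numbers (0.244 against 0.222). In A549 the largest differences were OASL (2.28, SE 0.21, adjusted p = 1.25e-05), ISG15 (2.16, SE 0.30, adjusted p = 0.000283) and IRF7 (1.41, SE 0.19, adjusted p = 0.000247). Without candidate 240 ASO3 replicate 1 or 2 no NCI-H460 member was called, and without either ASO1 library 1 was. Candidate 42 ASO5 gave lower levels than ASO3 in A549 for IFIT1, IFIT2, IFIT3 and USP18 (-0.88, -0.77, -0.85 and -0.79 on the log2 scale), against 4.63% of all genes lower and 6.02% higher. With the replicate number as a block, 7 members were called, IFIH1 higher and OASL and ISG15 lower in addition. Pairing by number is in doubt there, since replicate 5 correlated at 0.128 with its own number and up to 0.247 with another. In NCI-H460, ASO5 was higher than ASO3 for 7 members and lower for 2, against 27.7% and 5.62% of all genes, and median-ratio scaling turned this into 4 higher and 6 lower. That count of 9 became 5 without candidate 42 ASO3 replicate 1, 16 without its replicate 2 and 3 without candidate 42 ASO5 replicate 2. IRF7 (lower with ASO5, -1.179) and IFI44L, DTX3L, OAS3 and IFIH1 (higher) were called under all 3 scalings.

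The lines share no library, so their responses can be set against each other. OASL and HERC5 are left out of this count, since they were tested in NCI-H460 through candidate 240 ASO3 alone. With candidate 240 ASO3, 5 members rose in both lines: IFIT2, IFIT3, IRF7, IRF9 and ISG15. They are 5 of the 10 members called in A549 and 71.4% of the 7 called in NCI-H460, among 26 tested in both. Candidate 42 ASO3 shared ISG15, 1 of 4 A549 calls and 7.69% of 13 NCI-H460 calls. The share of all genes called in both lines was not computed. Whether the members agreed between lines more than other genes therefore cannot be read from these counts. No member was called in opposite directions for the same ASO. In the test of the difference between responses (A549 minus NCI-H460), 6 of 32 members differed for candidate 42 ASO3, 4 higher and 2 lower, against 15.5% and 4.22% of all genes (19.7% in all). Without the 4 that entered that fit through 1 line, 5 of 28 differed (17.9%), 3 higher and 2 lower. The members' share is thus near that of all genes. OAS3 (1.32, SE 0.31, adjusted p = 0.0112), OAS1 and IFIT3 had the higher response in A549, and IRF9 (-0.90, SE 0.20, adjusted p = 0.00871) and IRF7 the higher one in NCI-H460. The sixth, IFI44L, was at most 0.228 TPM in every A549 library and could not fall there, so its difference restates its fall in NCI-H460. After median-ratio scaling IFIT3 was no longer called (adjusted p = 0.146), nor was IFI44L. The count ranged from 1 without NCI-H460 candidate 42 ASO3 replicate 1 to 11 without its replicate 2; it was 2 and 3 without NCI-H460 control replicates 2 and 1, 3 without A549 control replicate 3 and 10 without A549 candidate 42 ASO3 replicate 3. For candidate 240 ASO3 the response of IRF9 alone differed (-1.06, SE 0.20, adjusted p = 0.0129), against 1.21% of all genes, and it was not called without NCI-H460 candidate 240 ASO3 replicate 1 or control replicate 2. No member's response differed by limma for candidate 42 ASO5 or candidate 240 ASO1, where 5 and 2 members had an unadjusted p under 0.05.

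**Figure D5:**
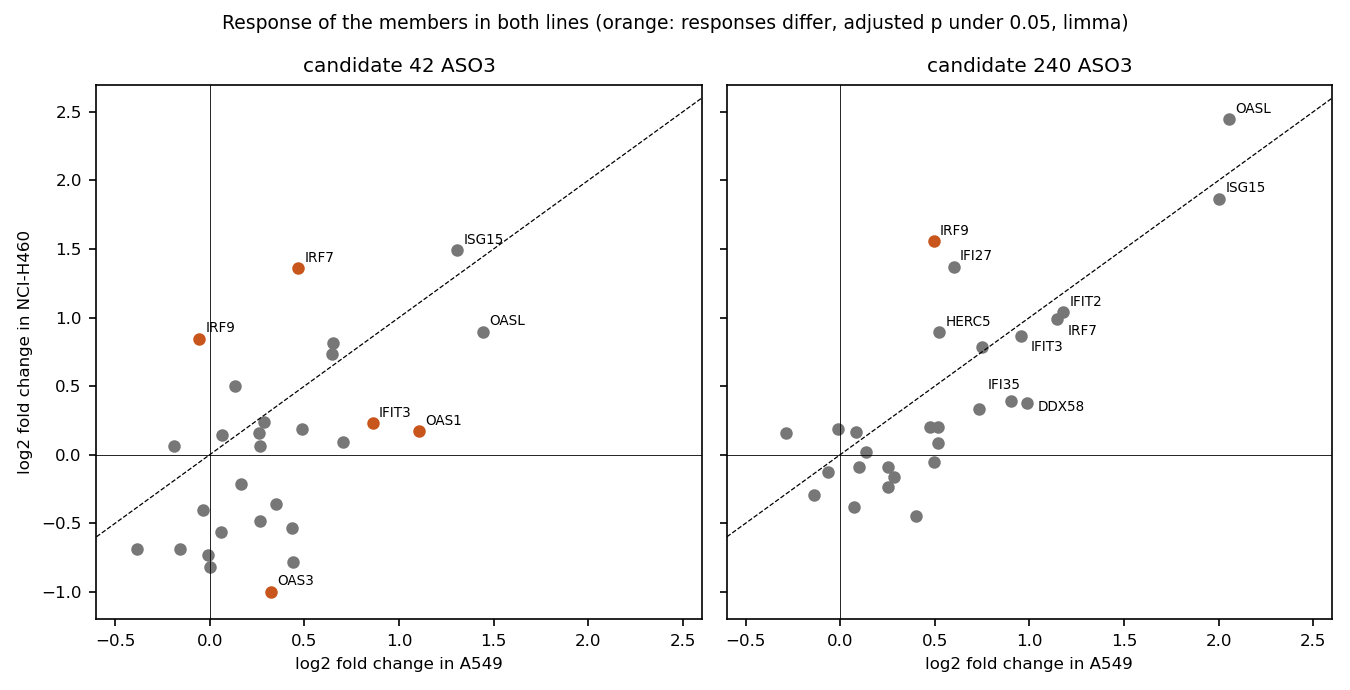
Log2 fold change of each member tested in both lines, A549 on the horizontal and NCI-H460 on the vertical axis, for candidate 42 ASO3 (left) and candidate 240 ASO3 (right), with a dashed line of equal response. Orange points are genes whose responses differed between lines, 5 on the left and IRF9 on the right; OASL and ISG15 lie at the upper right in both panels. IFI44L, the sixth on the left, was not tested in A549 and is not drawn.

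Upstream of these genes, interferon itself was scarcely seen. Of 22 interferon genes, 16 were listed at 0 in all 25 libraries, among them IFNG and IFNA2, and none reached the level needed for a test. IFNB1 was above 0 in 1 library, at 0.0547 TPM (A549 candidate 240 ASO3 replicate 4), and IFNL1 in 5, with 0.451 TPM as the highest (NCI-H460 candidate 240 ASO3 replicate 1). The highest value of any interferon gene was 0.478 TPM, of IFNA13 in an A549 control. With the depth unknown, a value of 0 does not show that the RNA was absent.

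All 6 receptor genes were tested. IFNAR1, a chain of the type I receptor, fell with candidate 42 ASO3 in NCI-H460, from a mean of 19.1 to 9.78 TPM (log2 -0.95, SE 0.17, adjusted p = 0.0023), and IFNGR1 and IL10RB fell with candidate 42 ASO3 in A549 (-0.52 and -0.44, SE 0.12 for both). Of all genes, 32.8% fell with candidate 42 ASO3 in NCI-H460 and 6.63% in A549. The receptor genes were not followed under the other scalings. Candidate 240 ASO3 changed none of the 6 receptor genes in either line. Among the JAK-STAT genes and their inhibitors, TYK2, the kinase bound to IFNAR1, fell from 34.8 to 12.0 TPM with candidate 42 ASO3 in A549 (-1.49, SE 0.17, adjusted p = 8.67e-05), the only one of 9 tested that changed. In NCI-H460 2 rose and 6 fell of 10 with that ASO, where 13.2% of all genes rose and 32.8% fell, led by PIAS1 (-1.25) and PTPN2 (-0.79), with PTPN6 (0.75) the larger of the rises. None of them changed with candidate 240 ASO3 in either line.

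The genes of nucleic acid sensing and IRF3 activation outside the 38 changed in part. The shares of all genes called, to be read beside the counts in these lists, were 13.8% and 5.66% with candidate 240 ASO3 (A549 and NCI-H460) and 10.1% and 46.0% with candidate 42 ASO3. With candidate 240 ASO3, 4 of 17 rose and 1 fell in A549, where IFI16, a DNA sensor, went from 2.10 to 6.70 TPM (1.45, SE 0.17, adjusted p = 8.52e-05) and STING1, the adaptor of cytosolic DNA sensing, from 2.23 to 5.68 (1.19, SE 0.21, adjusted p = 0.00152). In NCI-H460 3 of 18 rose and none fell: STING1 from 4.90 to 9.13 (0.83), DHX58 (0.74) and MYD88 (0.56). With candidate 42 ASO3, 3 of 17 rose in A549 (TRAF6 0.79, STING1 0.72 and CGAS 0.61), and in NCI-H460 3 rose and 6 fell of 18, with TLR3 (-1.27), ZC3HAV1 (-1.24) and TRIM25 (-1.02) the largest. STING1 was called higher in all 4 of these comparisons.

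Of 40 further interferon-stimulated genes outside the list, 9 of 31 tested rose and none fell with candidate 240 ASO3 in A549, with BATF2 from 1.31 to 4.23 TPM (1.41, SE 0.21, adjusted p = 0.000452), HELZ2 (0.93) and PARP10 (0.91) the largest. In NCI-H460 TYMP (0.96) and HELZ2 (0.79) rose of 34. With candidate 42 ASO3, UBE2L6, the E2 enzyme for ISG15, was the one of 31 that changed in A549 (0.46, SE 0.10, adjusted p = 0.00992), and 8 rose and 8 fell of 34 in NCI-H460, near the share of all genes. The antigen presentation list, driven mainly by interferon gamma, gave no call among 20 genes with candidate 240 ASO3 in A549 by limma (4 at an unadjusted p under 0.05), and in NCI-H460 WARS1 fell (-0.67, SE 0.10, adjusted p = 0.0104). Between the lines under control, 14 of 20 of these genes were lower in A549 and 1 was higher (18.4% and 36.4% of all genes), with HLA-B at 2.58 against 27.8 TPM (-3.26) and WARS1 at 93.4 against 659 (-2.81). IFITM3, a membrane protein that blocks virus entry, had the largest gap of the outside list, at 8.80 TPM in A549 and 776 in NCI-H460 (-6.44, SE 0.22, adjusted p = 5.34e-15), and IFI16 was at 2.10 against 36.1 (-3.81).

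The authors' deposited tables, made with another tool, list 15 members with a q-value under 0.05 for candidate 240 ASO3 in A549, 13 of them also called here, and 10 in NCI-H460, of which 8 were called here, against 11.6% and 6.91% of all listed genes. For candidate 42 ASO3 they list 9 in A549, including all 7 called here, against 11.3%. In NCI-H460 the authors' deposited table lists 20, 13 higher and 7 lower, of which 12 were called here, where 49.3% of all listed genes had such a q-value. For candidate 42 ASO5 the deposited tables of the authors give 5 members in A549, 2 of them called here, against 5.56% of all listed genes, and 0 in NCI-H460.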

How the data were processed

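The 25 libraries were quantified per gene with kallisto and compared with sleuth 0.30 on hg38, as the submitters' processing notes name them. No source used here states the annotation release, strand handling, rescaling or q-value method. The deposited table holds a TPM signal per gene and library whose columns sum to 924350 to 1179224, and no read counts, so depth and its precision are unknown. The authors' deposited comparison tables hold log2 fold changes, q-values and mean signal values.

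Values were taken as log2(TPM + 0.5), so fold changes of low genes are understated. Tests covered genes that averaged 1 TPM or more in the libraries of a fit, and used limma 3.58.1 in R 4.3.3 (empirical Bayes with a trend, two-sided). P-values were adjusted by Benjamini-Hochberg over all genes tested, and called under 0.05: 14740 genes in A549 (10 residual degrees of freedom), 13774 in NCI-H460 (5) and 14769 over both lines (15). The code was tested on simulated data. A lone library left after an omission is assumed to vary like the other groups.

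Members changed with an ASO are described with every library's value, the 10 largest called differences between lines likewise, and of each pathway list at most 3 called genes per comparison. The members and lists were chosen with earlier results of these data known. Replicate numbers were checked for pairing by correlating deviations from group means: every same-numbered A549 pair was over 0.1 for candidate 240 ASO1 (0.17 to 0.41), candidate 240 ASO3 (0.283 to 0.564), candidate 42 ASO5 against ASO3 (0.128 to 0.411) and candidate 240 ASO3 against ASO1 (0.244 to 0.479). These correlations were not required to exceed those between other numbers. For replicate 5 of candidate 42 ASO5 against ASO3 another number gave more (0.247 against 0.128). Alternatives were the pseudocount, the filter, the scaling, a replicate block, fits of only the groups compared, and each library left out.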

Additional observations from a re-analysis of the deposited data

Results flagged for a closer look

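The responses of 6 of 32 members to candidate 42 ASO3 differed between the lines by the test of the difference itself (limma, A549 response minus NCI-H460 response). Without the 4 members that entered that fit through 1 line, 5 of 28 did (17.9%). Of all genes 19.7% differed, so the count is near the background and only the single genes are described. IRF7 differed by -0.89 (SE 0.28, adjusted p = 0.0323) and IRF9 by -0.90 (SE 0.20, adjusted p = 0.00871), both with the larger rise in NCI-H460. OAS1 differed by 0.93 (SE 0.19, adjusted p = 0.00595), OAS3 by 1.32 (SE 0.31, adjusted p = 0.0112), IFIT3 by 0.63 (SE 0.21, adjusted p = 0.0437) and IFI44L by 0.90, with the higher value in A549. IFI44L entered that fit through NCI-H460 alone, so its value is a description with no p. IFI44L was at most 0.228 TPM in every A549 library and could not fall there, so its difference restates its fall in NCI-H460. The median of all genes in that test was 0.15. Of 10 omissions of a library, the call of IFIT3 was lost in 7, IRF7 in 6, IRF9 in 2, OAS3 in 1 and OAS1 in 0. The IFIT3 call was also lost in 5 of 7 other settings and that of IRF7 in 2. With candidate 240 ASO3, IRF9 differed by -1.06 (SE 0.20, adjusted p = 0.0129), again with the larger rise in NCI-H460. That call too was lost in 2 of 10 omissions. IRF9 is thus the member whose response differed between lines with both ASO3 oligonucleotides; the 2 tests share the control libraries.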

How the results depend on the processing

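Counts of members called are given for the alternative settings that moved them by over 1.5 times. With the replicate block, candidate 42 ASO3 in A549 went from 7 to 11 and candidate 42 ASO5 in A549 from 2 to 7. In these 2 comparisons replicate 3 correlated at 0.391 and 0.321 with its own number and at most -0.223 and -0.189 with others. Replicates 4 and 5 correlated no better with their own number (0.0897 and 0.0213 at the lowest) than with another. The block also took candidate 42 ASO5 against ASO3 in A549 from 4 to 7 and candidate 42 ASO5 in NCI-H460 from 1 to 0. The difference between lines went from 6 to 14 for candidate 42 ASO3 and from 0 to 1 for candidate 42 ASO5. Fits of only the groups compared gave 4 for candidate 42 ASO3, 1 for candidate 42 ASO5 and 7 for candidate 240 ASO3 in A549, 8 for candidate 42 ASO3, 0 for candidate 42 ASO5 and 3 for candidate 42 ASO5 against ASO3 in NCI-H460, and 2 and 0 for the differences between lines with candidate 42 ASO3 and candidate 240 ASO3. With no filter NCI-H460 gave 7, 0 and 4 for candidate 42 ASO3, candidate 42 ASO5 and candidate 240 ASO3, and 1 for candidate 240 ASO3 against ASO1. The single NCI-H460 call with candidate 42 ASO5 was also lost (0) with a pseudocount of 0.1 and under both other scalings, and candidate 240 ASO3 gave 5 there when libraries were rescaled to 1 sum. A549 replicates 4 and 5 alone, a setting chosen after seeing the data, gave 8 for candidate 42 ASO5. Leaving out 1 library at a time gave 4 to 6, 1 to 2, 0 and 10 to 15 in A549 (candidate 42 ASO3, 42 ASO5, 240 ASO1 and 240 ASO3), 7 to 13, 0, 0 and 1 to 3 in NCI-H460, 3 to 4 and 10 to 14 between ASOs of candidates 42 and 240 in A549, 3 to 16 and 0 to 1 in NCI-H460, 15 to 19 between the control groups, and 1 to 11, 0, 0 and 0 to 1 for the differences between lines. Of 94 called member values followed over these settings, 0 changed sign. Scaling did move the balance of higher and lower calls in NCI-H460, for candidate 42 ASO3 (7 and 8 as deposited, 10 and 3 after median-ratio scaling) and for ASO5 against ASO3. The unknown depth limits what the low genes, such as OASL and IFIT1 in NCI-H460, can show. The causes of these changes were not tested.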
